A study of Mus musculus with 4 samples.

Results

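Whole-cell RNA of primary ear fibroblasts was compared between 2 states of the small nucleolar RNA (snoRNA) AF357425, a member of the C/D box class, over all 55536 Ensembl genes of the deposited whole-cell count table. Of these genes, 26184 had at least 1 read in either library and 13519 were measured, meaning a mean of at least 1 CPM (counts per 1e6 gene-assigned reads) over both libraries. The cells came from ear clippings of C57BL/6 mice and had been kept in DMEM with fetal calf serum. Both states had 48 h of KN93, which blocks the calmodulin-dependent kinase CaMKII and which the labels give as a synchronizing agent, followed by 24 h of transfection. In the titles they are AF357425-High and AF357425-Low, here High and Low. The sample characteristics describe them as overexpression and inhibition of AF357425, whereas the treatment protocol describes gapmers, which are antisense oligonucleotides that make RNase H cut their target, aimed at AF357425 and a scrambled control. These descriptions disagree, and the sources used here do not give which transfection stands behind each state, nor the number of mice or cultures or their age. The series has 4 libraries, of which 2 are of whole-cell RNA, 1 per state.

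C/D box snoRNAs pair with ribosomal and other RNAs and guide the methyltransferase fibrillarin to the nucleotide it modifies. AF357425 belongs to a cluster of such snoRNAs in the imprinted Dlk1-Dio3 locus. Dermal fibroblasts make the collagens and elastic fibres of connective tissue, signal to immune cells through chemokines, and divide in culture.

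With 1 library per state, no test between the states was possible and no difference has a replicate check. Each log2 ratio of High to Low is given with an exact 95% interval for counting error alone, because reads amplified by PCR and carrying no molecular identifiers do not count independent molecules. A gene was called past a line where its whole interval lay beyond that fold. The libraries held 22082565 gene-assigned reads in High and 21693030 in Low. AF357425 itself (chr12:109636012-109636080, GRCm38.p6) had 0 reads in both libraries. This limits its level among gene-assigned reads, not in the cells, to 0.136 CPM in High and 0.138 CPM in Low. Fragments without a unique alignment, 11.3% of all in High and 11.2% in Low, were not assigned to genes. The labels could therefore not be checked on AF357425. The fibroblast label was checked on 16 markers, of which 14 were measured, with a summed level of 11232 CPM in High and 12830 CPM in Low. Markers of pericytes and smooth muscle, with 7 of 11 measured, summed to 1512 CPM in High and 1606 CPM in Low. Markers of T and NK cells summed to 0 and 2 reads, and 10 of those 12 genes were at 0 in both libraries. Of 5 Y-linked genes, 4 were measured in both states, and Xist had 3 reads in High and 1 in Low.

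Most genes had similar levels in High and Low. The ratio lay within 1.2-fold for 70.8% and within 1.5-fold for 92.8% of the 13519 measured genes, with a median log2 ratio of -0.01. Past 2-fold, 15 genes (0.111%) were higher and 18 (0.133%) lower in High. Past 1.5-fold, 59 genes (0.436%) were higher and 77 (0.570%) lower. Scaling by library totals in place of TMM changed the split to 18 higher and 14 lower past 2-fold, and to 79 higher and 57 lower past 1.5-fold.

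The ratios of genes spread more widely than counting error gives at every level. Between 1 and 3 CPM the SD of the log2 ratios was 0.557 over 2247 genes, against 0.350 from counting alone. Between 100 and 300 CPM it was 0.183 over 1598 genes, against 0.0358. The intervals of abundant genes are therefore narrower than the scatter of genes of like level, and the source of the extra scatter was not tested.

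**Figure D1:**
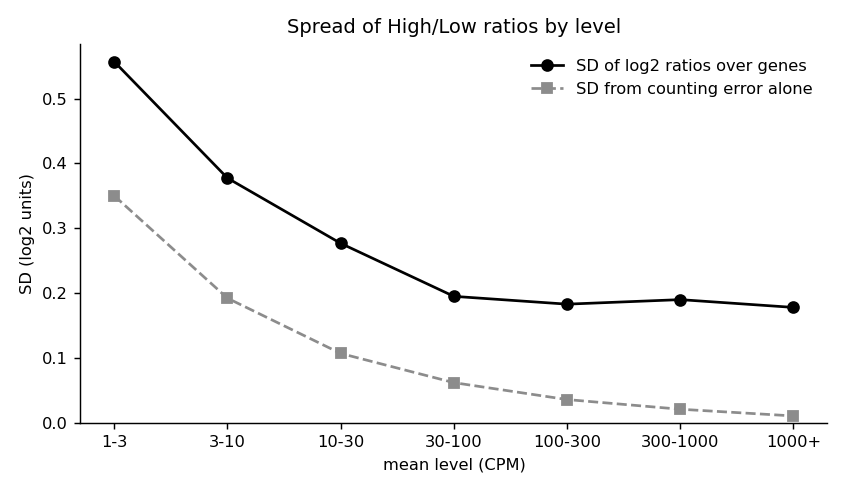
Standard deviation of log2 High/Low ratios over genes (log2 units, vertical axis) in 7 bins of mean level (CPM, horizontal axis), with circles for the observed SD and squares for the SD that counting error alone gives. The observed SD falls from 0.557 to 0.183 by the bin of 100 to 300 CPM and stays near that value above it, while the counting SD goes on falling to 0.0106.

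The protein-coding genes farthest above 0 included cartilage, growth factor and immune genes. Cnmd (ENSMUSG00000022025, chr14), which encodes the cartilage glycoprotein chondromodulin, had 99 reads in High and 14 in Low, a log2 ratio of 2.73 (1.92 to 3.65). Igfbp2 (ENSMUSG00000039323, chr1), a secreted binding protein of insulin-like growth factors, had 3171 and 1259 reads and a ratio of 1.24 (1.15 to 1.34). Both were past 2-fold, at very different depths. Ptn, which encodes the heparin-binding growth factor pleiotrophin, had 147 and 54 reads and a ratio of 1.35 (0.90 to 1.83). Il20rb, a receptor subunit for cytokines of the IL-20 group, had 241 and 98 reads and a ratio of 1.21 (0.86 to 1.56). Slc16a6, a monocarboxylate transporter gene, and Dok3, an adaptor gene of immune receptor signalling, were low in both states, with 57 against 16 and 47 against 12 reads. Their ratios of 1.74 (0.92 to 2.64) and 1.88 (0.94 to 2.93) have correspondingly wide intervals. Wdr66 (68 and 19 reads), Plb1 (101 and 32) and Lonrf2 (232 and 96) had ratios of 1.75, 1.57 and 1.18, each with its interval past 1.5-fold. Slc16a6, Wdr66 and Plb1 each overlap another gene.

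Gzme and Mcpt8 are neighbours in a protease gene cluster on chromosome 14, whose other members serve cytotoxic lymphocytes and mast cells. Gzme (chr14:56117619-56120625) had 464 reads in High and 159 in Low, and Mcpt8 (chr14:56082163-56085499) had 1087 and 403. Their log2 ratios were 1.45 (1.19 to 1.72) and 1.34 (1.17 to 1.51), both past 2-fold, although the span of Mcpt8 overlaps another gene. They were the only 2 measured genes among 14 listed members of the cluster, of which 6 had 0 reads in both libraries. The mast cell markers summed to 86.2 CPM in High and 73.1 CPM in Low, nearly all of it from the transcription factor gene Gata2 (1900 and 1583 reads), while Cpa3, a defining mast cell protease gene, was at 0 in both.

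Among genes of high level, Bclaf1 stood at 8129 reads in High and 3972 in Low, or 368 and 183 CPM. Bclaf1 (ENSMUSG00000037608, chr10:20310512-20342644) encodes a nuclear protein of messenger RNA processing, and its log2 ratio was 0.94 (0.89 to 1.00). Its closest relative Thrap3, looked up after the values were seen, had 8716 and 4830 reads and a ratio of 0.76 (0.71 to 0.81), although its span overlaps another gene. Of 2074 genes whose mean reached 100 CPM, 87.4% lay within 1.2-fold, and 14 were past 1.5-fold. The 6 higher ones were Igfbp2, Bclaf1, the collagen-binding proteoglycan gene Fmod (3028 and 1576 reads, 0.85), Thrap3, Igfbp5 and the mitochondrial ribosomal RNA mt-Rnr2 (18993 and 11512 reads, 0.63). The 8 lower ones were Cp, Gpnmb, Golgb1, Vps35, Grem1, Sulf1, Slc5a3 and Slco2a1, between -0.96 for Cp and -0.67 for Slco2a1. Cp encodes the copper-carrying ferroxidase ceruloplasmin (1961 and 3593 reads), Golgb1 the Golgi tether giantin (3220 and 5594) and Vps35 a retromer subunit of endosomal sorting (2346 and 4068). Among the lower ones, Cp, Golgb1, Slc5a3 and Slco2a1 each overlap another gene. The set of abundant genes was chosen after the values were seen.

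The protein-coding genes farthest below 0 included chemokines, a hormone and other secreted proteins. Angptl7 (ENSMUSG00000028989, chr4:148495181-148500462), a secreted angiopoietin-like protein, had 299 reads in High and 1040 in Low and a log2 ratio of -1.89 (-2.08 to -1.70). Its span overlaps another gene. The monocyte-attracting chemokine genes Ccl2 and Ccl7 are adjacent on chromosome 11 (chr11:82035577-82037452 and chr11:82045712-82047525). Ccl7 had 141 and 377 reads and a ratio of -1.51 (-1.80 to -1.23), and Ccl2 had 253 and 563 reads and a ratio of -1.24 (-1.46 to -1.03). Both chemokines were past 2-fold, but Ccl2 fell short of it with library totals (-1.18) and with totals that leave out the 20 most abundant genes (-1.21). Cck, which encodes the peptide hormone cholecystokinin, had 95 and 231 reads and a ratio of -1.37 (-1.73 to -1.02). It overlaps another gene and fell short of 2-fold under each of the 3 other scalings.

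Of the other genes farthest below 0, some had few reads. Sprr1a, a cornified envelope protein gene, had 13 reads in High and 49 in Low, a log2 ratio past 2-fold (interval -3.01 to -1.10). Dsp, which encodes the desmosome protein desmoplakin, had 17 and 53 reads and a ratio of -1.73 (-2.61 to -0.92). Sprr1a and Dsp are genes of keratinocytes, whose markers summed to 10.7 CPM in High and 10.5 CPM in Low, and 4 of 13, among them Krt14 and Krt1, had 0 reads in both libraries. Slitrk6, a neuronal transmembrane protein gene, had 9 and 40 reads (-2.24, -3.47 to -1.18) and was also past 2-fold. Nrcam, a neuronal cell adhesion gene, had 180 and 391 reads (-1.21, -1.47 to -0.95). Schwann cell markers summed to 5.52 and 5.95 CPM. The axon guidance gene Ntn1 (675 and 1259 reads, -0.99), the Rab regulator gene Tbc1d8b (563 and 1157, -1.13), the tudor domain gene Tdrd7 (371 and 725, -1.06), the membrane glycoprotein gene Gpnmb (1593 and 2910, -0.96) and Gpr137c (20 and 59, -1.65) complete the 15 farthest below 0 with Eif3j2, described with the gene copies. Of these, Ntn1, Tbc1d8b, Tdrd7 and Eif3j2 each overlap another gene.

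**Figure D2:**
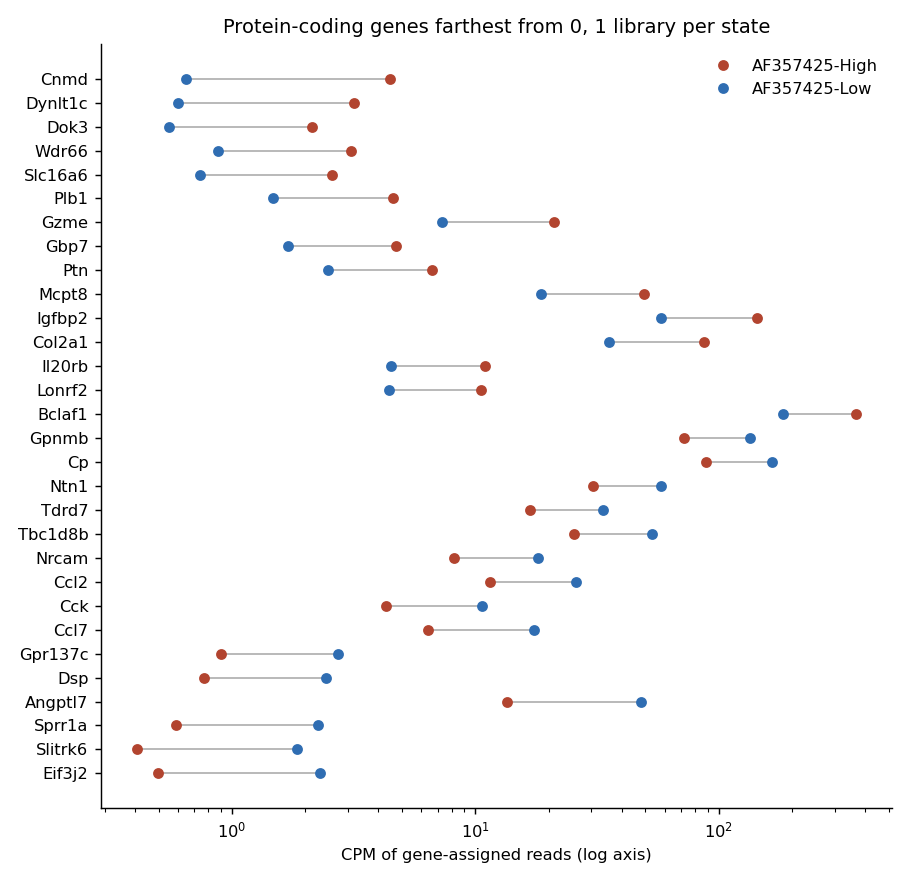
Levels of the 15 protein-coding genes on each side whose interval lay farthest from 0, in CPM of gene-assigned reads on a log axis, with red points for the High library and blue points for the Low library. Cnmd stands at the top and Eif3j2 at the bottom, and the lines between points are longest for genes of few reads. CPM are not per length, so levels of different genes cannot be compared.

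Several of the most extreme ratios belonged to gene copies, whose reads cannot be assigned with certainty. Of 33 genes past 2-fold, 12 were pseudogenes, a class that holds 229 (1.69%) of the measured genes. The pseudogene Tcea1-ps1 had 14 reads in High and 154 in Low (-3.55, -4.45 to -2.76), whereas its namesake Tcea1, a transcription elongation factor gene, had 1025 and 679 (0.50, 0.36 to 0.65). Vcp-rs had 173 and 918 reads (-2.50, -2.74 to -2.26), and Vcp, the gene of an abundant unfolding ATPase, 12463 and 10931 (0.10, 0.06 to 0.14). In each pair the copy was low and the namesake slightly high. The same held for Pdcd5-ps (7 and 56 reads) beside Pdcd5 (494 and 404), Itpa-ps1 (9 and 82) beside Itpa (572 and 406), and Eif3j2 (11 and 50) beside Eif3j1 (1027 and 741). With the reads of copy and namesake added, the log2 ratio was 0.00 for Vcp (-0.03 to 0.04), 0.03 for Pdcd5 (-0.15 to 0.22), 0.16 for Itpa (-0.02 to 0.34), 0.23 for Tcea1 (0.10 to 0.36) and 0.30 for Eif3j1 (0.17 to 0.44). Dynlt1c, a dynein light chain gene with near-identical neighbours, had 70 and 13 reads (2.34, 1.47 to 3.32). The reads of the 4 Dynlt1 genes together were 177 and 129, a ratio of 0.37 (0.03 to 0.70). These pairs were chosen after the values were seen, and the part of read assignment in them was not tested.

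Other transcripts that are not protein coding and lay past 2-fold are given as the annotation names them. AC133509.1, which has no RefSeq class, had 49 reads in High and 1173 in Low (-4.67, -5.11 to -4.26). The pseudogene Gm6767 had 4 and 62 reads (-4.04), and the pseudogenes Gm10039 (68 and 5 reads, 3.67), Gm18588 (190 and 28, 2.67), Gm6563 (216 and 36, 2.49) and Gm6560 (622 and 116, 2.33) lay on the high side. The other pseudogenes past 2-fold were lower, Gm13456 (226 and 871, -2.04), Gm5869 (9 and 37, -2.13) and Gm8186 (52 and 179, -1.87). Of 3 more genes with no RefSeq class, Gm24187 (15 and 52 reads, -1.88) was lower and Gm44829 (144 and 40, 1.76) and Gm47615 (48 and 11, 2.03) were higher. The long noncoding RNAs past 2-fold were Gm4262 (82 and 19 reads, 2.02), 2810001G20Rik (67 and 18, 1.81) and Gm16638 (183 and 60, 1.52), all higher in High. Of the snoRNAs only the H/ACA box Snora73b passed, with 29 and 101 reads (-1.89, -2.54 to -1.28), and its span overlaps another gene. Of 101 C/D box snoRNAs 4 were measured, all above 0 with intervals that span 0, and 62 had 0 reads in both libraries. All 4 overlap another gene, so their reads cannot be told apart from those of the overlapping genes.

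**Figure D3:**
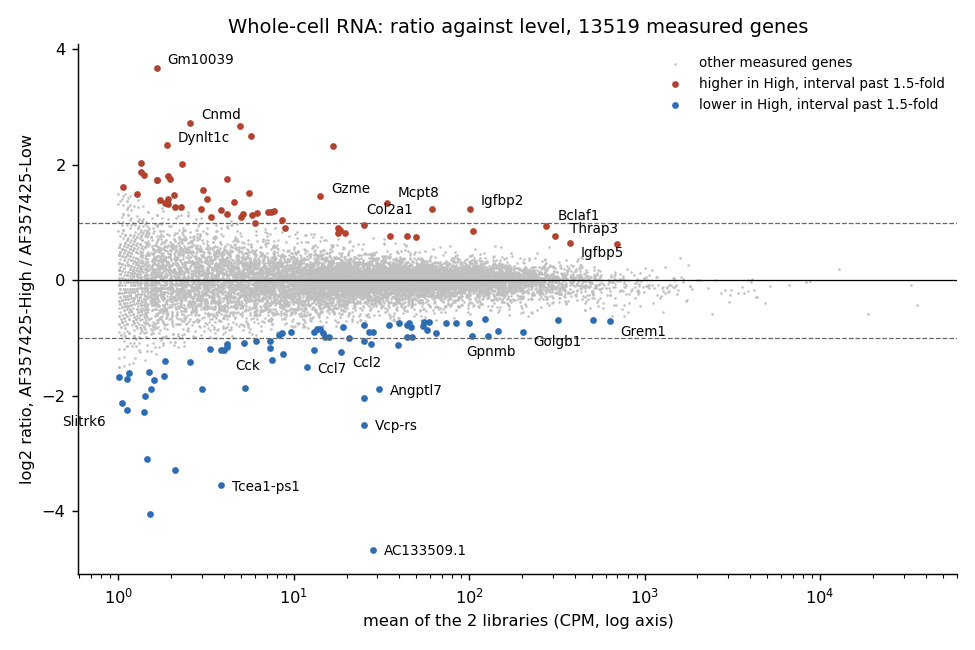
Log2 ratio of High to Low (vertical axis) against mean level in CPM (horizontal log axis) for the 13519 measured genes, with red for the 59 genes higher and blue for the 77 genes lower past 1.5-fold and dashed lines at 2-fold. Most points lie in a band around 0 that narrows with level, and AC133509.1 lies farthest below it.

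Cell-cycle genes were lower in High across most of their functions. The cell cycle runs from the G1 cyclins through DNA replication, with its histone supply, to the mitotic kinases that drive spindle assembly and chromosome segregation. Of 99 measured genes in 4 mitosis lists (kinases and cyclins, spindle and cytokinesis, centromere and kinetochore, condensation and cohesion), 92 lay below 0, against 51.8% of all measured genes. Intervals lay wholly below 0 for 54 of the 99 and wholly above for 2, beside 20.5% and 18.0% of all measured genes, and 3 were past 1.5-fold (0.570% of all genes were lower past that line). The median was -0.25. In bulk RNA, fewer dividing cells and less of these RNAs per cell cannot be told apart.

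The spindle and cytokinesis genes lay lowest of the 4, with all 27 measured genes below 0 and a median of -0.40. Of their intervals, 23 lay below 0 (20.5% over all genes). Kif20b, a kinesin of late cytokinesis, had 231 reads in High and 431 in Low (-0.99, -1.23 to -0.76). It was past 1.5-fold, and its span overlaps another gene. The microtubule-depolymerizing Kif2c had 160 and 259 reads (-0.79), Kif14 had 151 and 241 (-0.77), and Kif23, the kinesin of the central spindle, 304 and 414 (-0.54). Kif11, the motor that separates the spindle poles, had 508 and 538 reads and an interval that reached 0 (-0.17, -0.35 to 0.00). The members of the list thus ranged from -0.99 to -0.05.

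Of 25 mitotic kinases, cyclins and their regulators, 24 lay below 0, with 12 intervals below 0 (20.5% over all genes) and a median of -0.24. The checkpoint kinase gene Bub1b had 261 and 406 reads (-0.73, -0.96 to -0.50), and Plk4, the kinase of centriole duplication, 298 and 392 (-0.49, -0.71 to -0.27). Cdk1, the main mitotic kinase, had 613 and 783 reads (-0.44, -0.60 to -0.29), whereas the interval of its partner cyclin Ccnb1 (327 and 355 reads) spanned 0 (-0.21, -0.43 to 0.01). At the kinetochore, where chromosomes attach to the spindle, 26 of 28 genes lay below 0 with a median of -0.18. Intervals lay wholly below 0 for 8 of the 28, beside 20.5% of all measured genes. Cenpe, a kinetochore kinesin, had 448 and 786 reads and was past 1.5-fold, Cenpf had 513 and 657 (-0.45), and Birc5, the survivin subunit of the chromosomal passenger complex, 239 and 314 (-0.48). Among condensation and cohesion genes 15 of 19 lay below 0, with a median of -0.12. Top2a, the topoisomerase that untangles sister chromatids, had 1695 and 2671 reads and was past 1.5-fold. The condensin gene Ncapd2 had 935 and 1140 reads (-0.38), while the cohesin gene Stag2 stood above 0 with 2745 and 2162 (0.25, 0.17 to 0.34).

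Genes of G1, replication, repair and the histone supply also lay mostly below 0. Ccnd1, the cyclin D1 gene of the G1 transition, had 14745 reads in High and 20283 in Low (-0.55, -0.58 to -0.52). The kinase inhibitors Cdkn2a (221 and 312 reads, -0.59) and Cdkn2b (308 and 431, -0.58), which oppose the cyclin D kinases, lay below 0 as well, whereas the inhibitor Cdkn1b (1087 and 815 reads, 0.32, 0.19 to 0.46) lay above it and the interval of Cdkn1a spanned 0. Of 26 G1 genes 20 lay below 0 (median -0.16), with 12 intervals below 0 and 2 above (20.5% and 18.0% over all genes). Of 53 replication genes 44 lay below 0 (median -0.16), with 24 intervals below 0 and 2 above (20.5% and 18.0% over all genes). The thymidine kinase gene Tk1 had 312 and 427 reads (-0.54, -0.76 to -0.33), the helicase gene Mcm2 1141 and 1273 (-0.25) and the sliding clamp gene Pcna 1371 and 1437 (-0.16, -0.27 to -0.05). Of 20 genes of double-strand break repair 16 lay below 0 (median -0.33), among them the helicase gene Brip1 (164 and 270 reads, -0.81, -1.10 to -0.52), Fanci (92 and 148, -0.78) and Brca1 (428 and 553, -0.46). Of 54 measured replication-dependent histones 46 lay below 0, and 2 passed the 1.5-fold line (0.570% over all genes), Hist1h2af (59 and 123 reads, -1.15, -1.62 to -0.69) and Hist1h4b (60 and 121, -1.10, -1.57 to -0.64).

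**Figure D4:**
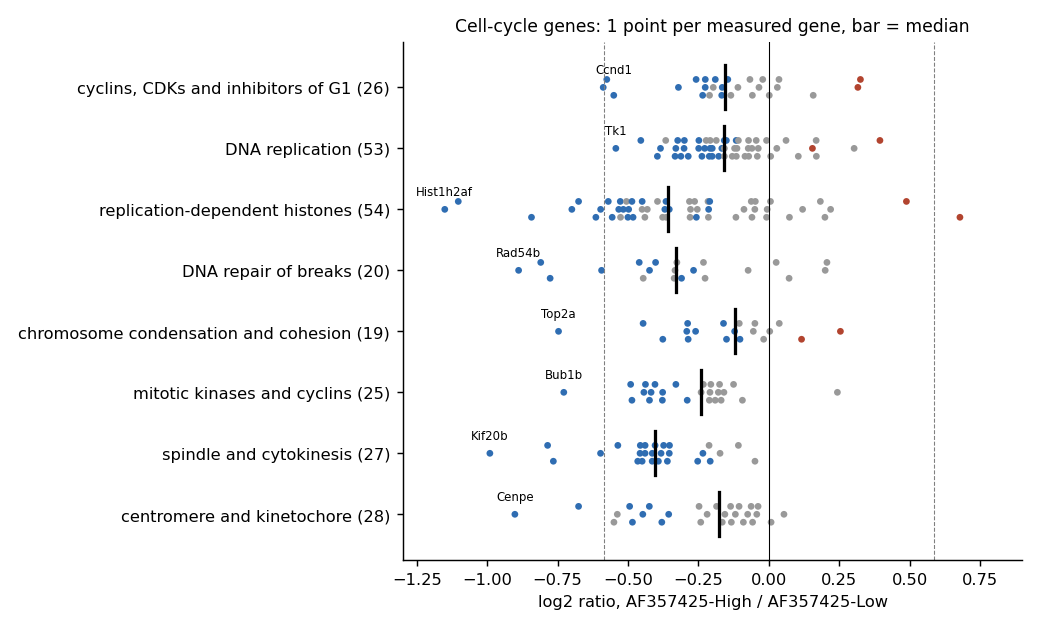
Log2 ratios of High to Low (horizontal axis) for the measured genes of 8 cell-cycle lists, 1 point per gene with the number of genes in parentheses. Red and blue mark intervals wholly above or below 0, grey marks intervals that span 0, black bars are list medians and dashed lines mark 1.5-fold, and all 27 spindle genes lie left of 0.

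Promoters of the mitosis lists often held a sequence element known from mitotic genes. The shares by list describe the listed genes and use no High or Low value. The cell cycle homology region (CHR), searched as TTTGAA or TTCGAA on either strand, is the known binding element of the MuvB complexes that time mitotic genes. Windows ran from 250 bases before to 50 bases after the gene start (RefSeq, GRCm38.p6). It was found in 54 of 89 windows (60.7%) of the 4 mitosis lists and in 23 of 27 (85.2%) of the spindle genes, against 1751 of 12411 windows (14.1%) of all measured genes. Of the 54 windows of genes lower past 1.5-fold, 7 held it, a share near that of all windows. The E2F element of replication genes, searched as TTTGGCGC or TTTCGCGC, was in 13 of 54 replication windows (24.1%) against 1.56% of all. A match describes the letters in the window and is not a measured site. The promoters of Cdk1 (chr10:69352863-69353062, minus strand), Bub1b (chr2:118598061-118598260, plus strand), Kif20b (chr19:34922208-34922407, plus strand) and Plk1 (chr7:122159285-122159484, plus strand) follow, chosen because they hold the element, from 150 bases before to 50 after the start, with CHR matches in capitals.
Cdk1: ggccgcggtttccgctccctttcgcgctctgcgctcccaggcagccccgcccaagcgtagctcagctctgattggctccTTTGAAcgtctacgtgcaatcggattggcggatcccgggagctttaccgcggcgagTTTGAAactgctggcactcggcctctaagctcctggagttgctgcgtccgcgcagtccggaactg
Bub1b: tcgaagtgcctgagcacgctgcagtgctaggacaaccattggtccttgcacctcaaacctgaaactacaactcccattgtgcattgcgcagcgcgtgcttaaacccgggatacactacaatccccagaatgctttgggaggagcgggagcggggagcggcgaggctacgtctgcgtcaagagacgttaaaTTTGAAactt
Kif20b: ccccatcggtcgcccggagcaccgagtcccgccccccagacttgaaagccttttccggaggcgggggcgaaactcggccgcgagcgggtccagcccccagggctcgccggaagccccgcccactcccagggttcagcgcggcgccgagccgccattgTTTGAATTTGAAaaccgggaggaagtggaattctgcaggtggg
Plk1: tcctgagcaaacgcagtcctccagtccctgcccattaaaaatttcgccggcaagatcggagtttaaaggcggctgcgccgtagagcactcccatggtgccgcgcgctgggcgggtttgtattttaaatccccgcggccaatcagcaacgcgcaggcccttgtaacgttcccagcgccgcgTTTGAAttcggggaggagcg
The windows of Cenpe and Ccnb1 held no match.

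Cartilage matrix genes lay above 0 in all 8 measured members, with a median of 0.81. The median was 0.52 over 3 genes at a mean of at least 5 CPM, and 0.77 over 19 genes with no filter on low counts. Only 2 of the 8 measured members overlap no other gene. Cartilage is built on type II collagen fibrils, to which collagens IX and XI and the proteoglycan aggrecan attach. Col2a1, the type II collagen gene (chr15, overlapping another gene), had 1922 reads in High and 766 in Low, and was past 2-fold with Cnmd, 2 of 8 against 0.111% of all genes. Cnmd (4.48 CPM in High, 0.65 CPM in Low) and Col9a3, also below 1 CPM in Low, reached a mean of 1 CPM only through their High levels. The counts over the measured members are therefore partly set by the filter. Col11a1 had 4503 and 3041 reads (0.48, 0.41 to 0.54), and Comp, the cartilage oligomeric matrix protein gene, 572 and 374 (0.52, 0.33 to 0.71). Matn4 (123 and 76 reads, 0.60), Col9a3 (35 and 17, 0.95), Col10a1 (49 and 27, 0.77) and Acan (42 and 22, 0.84) had intervals that lay above 0. The other 17 of the 25 listed genes were not measured, and 6 of them had 0 reads in both libraries. The wider chondrocyte markers summed to 295 CPM in High and 208 CPM in Low, with 6 of 13 measured and Col11a2, Snorc and Matn1 at 0. Their part in the result was not tested.

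The transcription factors and signals of cartilage were mixed, with 6 of 14 measured genes above 0 and 8 below, 3 intervals above and 5 below. Their median of -0.16 became 0.06 at a mean of at least 5 CPM and 0.04 with no filter, so no direction is given. Sox9, the transcription factor that directs chondrocyte genes, had 3727 and 3219 reads (0.12, 0.05 to 0.19). Bmp2, a bone morphogenetic protein (BMP) ligand, had 13 and 34 reads (-1.48, -2.52 to -0.52), and the related ligands Gdf6 and Gdf5 had 288 and 469 (-0.79, -1.01 to -0.58) and 71 and 105 (-0.66, -1.11 to -0.21). Grem1, the secreted antagonist that binds such ligands, had 10919 and 16742 reads (-0.71, -0.74 to -0.67) and was past 1.5-fold. These ligands and the antagonist were thus low together, but Bmp2 was below 1 CPM in High and was measured only through its Low level. The target genes Id2 (890 and 626 reads, 0.42), Id3 (3451 and 2549, 0.35), Id4 (533 and 359, 0.48) and Id1 (1668 and 1407, 0.15, 0.05 to 0.26) had intervals above 0. Over the 24 measured BMP pathway genes 11 lay above and 13 below 0, with 9 intervals above 0 and 7 below (18.0% and 20.5% over all genes).

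Other secreted signals also split. In the insulin-like growth factor (IGF) axis, where binding proteins hold the ligand outside the cell, Igfbp2 and Igfbp5 (10301 and 6151 reads, 0.65, 0.61 to 0.70) were past 1.5-fold, 2 of 20 against 0.436% of all genes. Igfbp6 (549 and 787, -0.61, -0.77 to -0.45) and the ligand Igf1 (354 and 450, -0.44, -0.64 to -0.23) lay below 0. Among genes of receptor tyrosine kinases the ligand Fgf10 had 53 and 115 reads (-1.21, -1.71 to -0.73) and was past 1.5-fold on the low side, and its receptor gene Fgfr2 had 2110 and 1308 (0.60, 0.50 to 0.70). The hepatocyte growth factor receptor gene Met had 699 and 1032 reads (-0.65, -0.79 to -0.51). In the WNT pathway the secreted antagonist gene Dkk2 was past 1.5-fold with 55 and 119 reads (-1.20, -1.69 to -0.73). The feedback target Axin2 had 249 and 362 (-0.63, -0.87 to -0.39), the feedback inhibitor Apcdd1 92 and 155 (-0.84), and the receptor gene Fzd4 898 and 595 (0.50). The ligand gene Wnt5a had an interval that spanned 0.

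Genes of the dermal matrix lay mostly below 0 by small amounts. Of 36 genes of fibrillar collagens and their enzymes 26 lay below 0 (median -0.12), with 23 intervals below 0 and 5 above (20.5% and 18.0% over all genes) and none past 1.5-fold. Intervals off 0 are common at high levels, where many of these genes lie, and made up 63.0% of all those of 100 to 300 CPM. The most abundant genes of any kind also leaned below 0. The median was -0.11 over the 80 genes of at least 1000 CPM and -0.03 over the 396 of 300 to 1000 CPM. Col1a1, the main collagen of skin, had 77328 and 84317 reads (-0.22, -0.23 to -0.20), and Col3a1 had 18059 and 23185 (-0.45, -0.48 to -0.42). The collagen-trimming protease gene Adamts14 (90 and 161 reads, -0.93, -1.32 to -0.55) and the lysyl hydroxylase gene Plod1 (424 and 608, -0.61) lay lower. Of 15 elastic fibre genes 10 lay below 0 (median -0.23), among them Fbln2 (94188 and 116819 reads, -0.40) and Efemp1 (5539 and 6998, -0.43), whereas Fbln5 had 8970 and 6631 (0.35). Mmp3, a matrix metalloproteinase gene, had 242 and 448 reads (-0.98, -1.21 to -0.75) and was past 1.5-fold. Fibroblast markers, which share several of these genes, had a median of -0.29 over 14 measured.

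Targets of the mechanically regulated factors YAP and SRF lay above 0 in 16 of 20 measured genes (median 0.11), with 13 intervals above 0 and 1 below (18.0% and 20.5% over all genes), none past 1.5-fold. Intervals off 0 on either side are more common at high levels. They made up 63.0% of all those of 100 to 300 CPM and 76.8% of those of 300 to 1000 CPM. Ccn2, a YAP target and matricellular protein gene, had 31913 and 25547 reads (0.23, 0.21 to 0.25), and Ccn1 19674 and 16733 (0.14). The receptor kinase gene Axl, 18973 and 21027, was the 1 interval below 0 (-0.24). The smooth muscle actin gene Acta2, a mark of contractile fibroblasts, had 28610 and 30852 reads (-0.20, -0.22 to -0.18) and the related Tagln 13182 and 11655 (0.09, 0.05 to 0.12).

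Interferon-response genes lay above 0 in 32 of 41 measured genes, with a median of 0.24 and 16 intervals above 0 and 1 below (18.0% and 20.5% over all genes). Interferons act through transcription factors that bind promoter elements of the form GAAANNGAA. Gbp7, a guanylate-binding GTPase gene, had 104 reads in High and 37 in Low (1.40, 0.85 to 1.98), and Iigp1, an immunity-related GTPase gene, 152 and 67 (1.09, 0.67 to 1.53). These were the 2 genes past 1.5-fold (0.436% of all genes were higher past that line). Xaf1 had 294 and 166 reads (0.73, 0.45 to 1.02) and Ifit1, which encodes a sensor of foreign RNA ends, 173 and 94 (0.79, 0.42 to 1.17), whereas Isg15, a ubiquitin-like modifier gene, had 94 and 78 (0.18, -0.27 to 0.63). The element was in 20 of 36 windows (55.6%) of the list against 6.91% of all windows, a share that uses no High or Low value. The promoters of Ifit1 (chr19:34640739-34640938, plus strand) and Gbp7 (chr3:142530186-142530385, plus strand) are shown as holders of the element, which reads TTCNNTTTC on the strand printed, in capitals.
Ifit1: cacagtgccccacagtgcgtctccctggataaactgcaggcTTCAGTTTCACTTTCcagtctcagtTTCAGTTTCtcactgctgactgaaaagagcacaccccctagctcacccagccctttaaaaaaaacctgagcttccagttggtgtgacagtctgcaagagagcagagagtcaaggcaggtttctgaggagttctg
Gbp7: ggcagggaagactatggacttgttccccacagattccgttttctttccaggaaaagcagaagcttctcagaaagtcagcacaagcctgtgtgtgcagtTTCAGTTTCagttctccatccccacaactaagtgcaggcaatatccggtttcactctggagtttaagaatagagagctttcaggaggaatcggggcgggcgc

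Inflammatory genes outside that list differed one by one. Il1rn, which encodes the interleukin-1 receptor antagonist, had 178 and 76 reads (1.14, 0.74 to 1.54) and was past 1.5-fold, and Il1r1, the receptor gene, 2890 and 1871 (0.54, 0.45 to 0.62). Il11 had 894 and 535 (0.65, 0.49 to 0.81), while Lif, a cytokine that uses the same gp130 co-receptor, had 1225 and 1577 (-0.45, -0.56 to -0.35). Il6 had an interval that spanned 0. Nfkbia, the inhibitor and feedback target of NF-kappa-B, had 436 and 692 reads (-0.76, -0.93 to -0.58), and Nfkb1 had 2754 and 2583 (0.00, -0.08 to 0.08). Unlike Ccl2 and Ccl7, the chemokine genes Cxcl14 (3797 and 2354 reads, 0.60, 0.52 to 0.67) and Cx3cl1 (1829 and 1266, 0.44) lay above 0, and Cxcl1 had an interval that spanned 0. Macrophage markers summed to 295 reads in High and 283 in Low, with 7 of 14 genes at 0. In the complement system the protease gene Masp1 (11700 and 16829 reads, -0.62, -0.65 to -0.58) lay below 0.

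Metabolic and stress genes gave small group shifts. Of 28 measured genes of glycolysis and the hypoxia response 24 lay below 0 (median -0.14), with 18 intervals below 0 (20.5% over all genes), none above and none past 1.5-fold. With library totals the list median was -0.08. Intervals off 0 are more common at high levels, and the 80 genes of at least 1000 CPM had a median of -0.11. The pyruvate kinase gene Pkm had 23303 and 32122 reads (-0.55, -0.58 to -0.53), Eno2, an enolase gene, 198 and 284 (-0.61), and Ndrg1 683 and 950 (-0.57). The glucose transporter gene Slc2a1 had 2310 and 2191 reads and an interval that spanned 0 (-0.01). Of 24 cholesterol synthesis genes 17 lay above 0 (median 0.19), with 14 intervals above 0 and 3 below (18.0% and 20.5% over all genes). Intervals off 0 on either side made up 46.5% of all those of 30 to 100 CPM and 63.0% of those of 100 to 300 CPM. Lss, lanosterol synthase, had 1076 and 778 reads (0.38, 0.24 to 0.51). Hmgcs1, a synthase of an early step, had 3163 and 2397 (0.31, 0.23 to 0.39). Its promoter (chr13:119690201-119690400, plus strand) held the only TCACCCCAC sterol element among 20 windows of the list (5%, against 0.588% of all) and is shown with it in capitals.
Hmgcs1: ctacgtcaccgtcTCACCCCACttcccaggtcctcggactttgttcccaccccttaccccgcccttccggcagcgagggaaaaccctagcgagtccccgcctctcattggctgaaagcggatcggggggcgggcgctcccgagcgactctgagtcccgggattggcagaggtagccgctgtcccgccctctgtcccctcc

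Targets of the oxidative stress factor NRF2 were mixed, with 13 of 26 measured genes on each side of 0. The heme oxygenase gene Hmox1 had 7727 reads in High and 4848 in Low (0.58, 0.53 to 0.63), and the glutathione genes Gsr and Gclm had 1167 and 708 (0.63, 0.49 to 0.77) and 2165 and 1451 (0.49, 0.39 to 0.58). Txnrd1, thioredoxin reductase, had 10304 and 7658 (0.34). Nqo1, a quinone reductase often used as an NRF2 readout, lay on the other side with 1260 and 1498 (-0.34, -0.45 to -0.23), and Nfe2l2, the NRF2 gene, had an interval that spanned 0. Among immediate early genes Klf2 had 793 and 447 reads (0.74, 0.57 to 0.91) and Nr4a1 2762 and 3707 (-0.52, -0.59 to -0.44). Among clock genes, whose median changed sign with the scaling, the repressor genes Per1 and Bhlhe40 had 1492 and 1837 (-0.39, -0.49 to -0.29) and 3853 and 4710 reads (-0.38, -0.44 to -0.32).

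Genes tied to the treatment itself were also looked at. Among genes of calmodulin and its kinases, the pathway that KN93 blocks in both states, the kinase gene Camk2d had 3947 and 3681 reads (0.01, -0.06 to 0.08). Rcan2, a calcineurin regulator, had 68 and 128 (interval -1.45 to -0.57). Among nucleases, Rnaseh1, the enzyme that gapmers recruit, had 164 and 163 reads (-0.08, -0.40 to 0.24). The exonuclease genes Xrn2 and Xrn1 had 1847 and 2588 (-0.58, -0.66 to -0.49) and 1339 and 1769 (-0.49, -0.60 to -0.39). Dis3l, a cytoplasmic exosome subunit, was past 1.5-fold with 314 and 592 (-1.01, -1.21 to -0.81), the 1 member of 23 measured past that line (0.570% over all genes). The C/D snoRNP genes Fbl, which encodes fibrillarin, and Nop58 had 1002 and 830 (0.18, 0.05 to 0.32) and 2492 and 2104 (0.15, 0.07 to 0.24), and 11 of the 22 genes of that list lay on each side of 0. Among imprinted genes Peg3 (584 and 937 reads, -0.77, -0.92 to -0.62) was past 1.5-fold, and Mest (908 and 522, 0.71, 0.55 to 0.87) fell short of it.

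**Figure D5:**
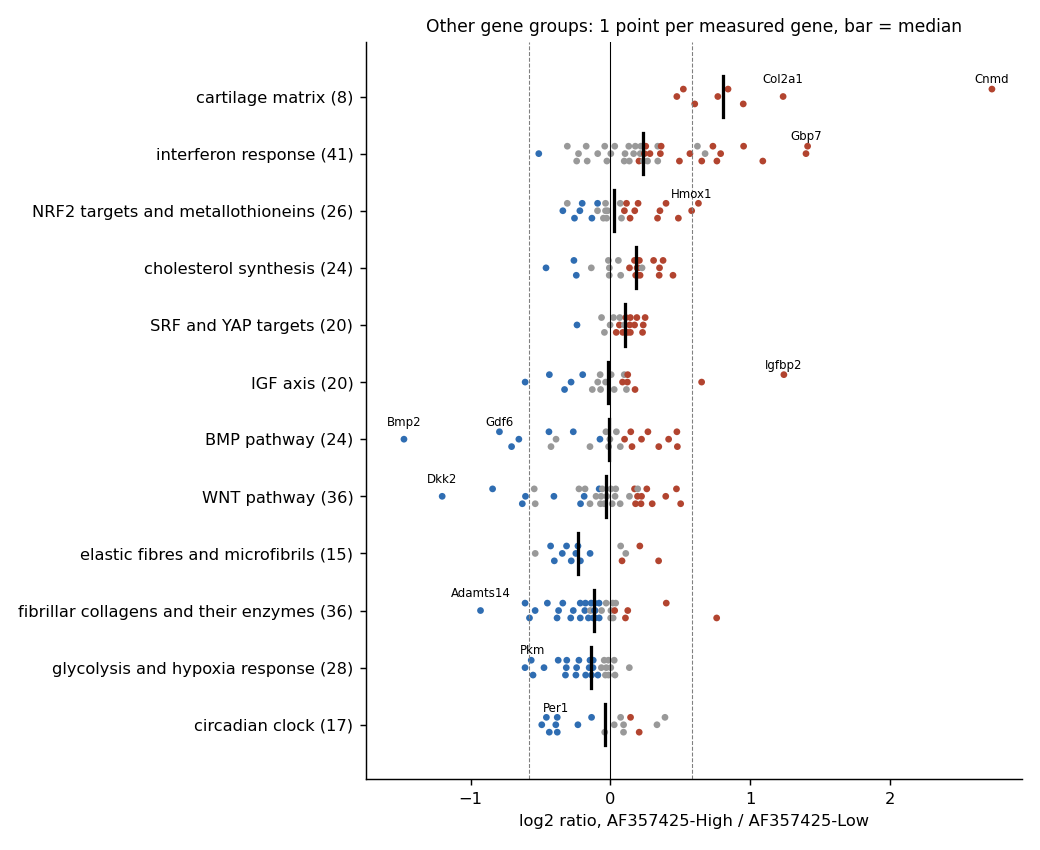
Log2 ratios of High to Low (horizontal axis) for the measured genes of 12 other lists, 1 point per gene with the number of genes in parentheses, coloured red or blue where the interval lay wholly above or below 0 and grey where it spanned 0. Black bars are medians and dashed lines mark 1.5-fold, and the 8 cartilage matrix genes all lie right of 0 while the BMP and WNT lists spread to both sides.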

How the data were processed

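RNA of 1 AF357425-High and 1 AF357425-Low library was sequenced on the DNBseq platform after TRIzol extraction, per the labels. The deposited values are the authors' fragment counts per gene, whole numbers without normalization. Per the submitters' processing notes, cutadapt 2.4, STAR 2.6.0c, HTSeq 0.9.1 and StringTie 1.3.4 were used with GRCm38. For the annotation and strand setting, not given in the sources used here, nothing could be assumed, so overlapping and antisense genes cannot be told apart. Overlap with another gene is stated for some of the named genes and not for all of them. Of 40170456 and 38565766 fragments, 55.0% and 56.2% were assigned to genes. The HTSeq summary lines were left out. Symbols were paired with 55450 IDs and RefSeq spans with 38652.

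Libraries were scaled by TMM with edgeR 4.0.16 under R 4.3.3 (factors 1.02 for High, 0.978 for Low). Ratios have exact (Clopper-Pearson) 95% intervals, and no test was run. A count of 0 was limited at 3 reads. Named genes were, on each side, the 15 protein-coding genes whose nearer bound lay farthest from 0, up to 4 genes past 2-fold of each other class, and in each of 62 lists up to 4 members by the same bound with the first 2 of the list. Genes named beyond this rule, such as Thrap3, the namesakes of copies and members given to show the range of a list, were chosen after their values were seen. Some genes that the rule names are not reported here. The members and lists were chosen with earlier results of these data known, so no list is independent evidence. Promoter windows came from RefSeq (GRCm38.p6), with 9685 of 12373 measured genes with a span matched. The interval calculation was checked on simulated counts that hold counting error only, not the wider scatter of the real genes. Alternatives were other scalings, including DESeq2 1.42.0 size factors, other filters, genes without overlap and a 99% interval.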

Additional observations from a re-analysis of the deposited data

How the results depend on the processing

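No paired analysis was possible because each state has 1 library. With a mean of at least 5 CPM, 7 genes were higher and 8 lower past 2-fold and 29 higher past 1.5-fold. Without a filter on low counts these were 35, 29 and 112. Without genes that overlap another, 11 were lower past 2-fold and 43 past 1.5-fold. With a 99% interval 39 were higher past 1.5-fold. Under library totals the named genes Cck (-1.31), Ccl2 (-1.18), Gm5869 (-2.07) and Gm24187 (-1.82) fell short of 2-fold.

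List medians were judged to have moved by a limit chosen after seeing the data. The shift had to exceed the median distance from the centre to the end of the members' counting intervals. With library totals the median moved to -0.17 for elastic fibres, 0.0778 for contractile genes, 0.0822 for mitochondrial messenger RNAs and 0.10 for ribosomal proteins. Totals without the top 20 genes gave 0.0524 for mitochondrial messenger RNAs. At 5 CPM, CC chemokines had -1.24, mitochondrial messenger RNAs -0.0937 and structured noncoding RNAs -0.44. Without a filter, CC chemokines had 0.19, CXC chemokines 0.44 and mitochondrial messenger RNAs -0.10. Without overlapping genes, cartilage matrix had 1.60 over 2 genes, cartilage signals -0.41, basement membrane 0.0416, CC chemokines -0.95, CXC chemokines 0.13, fatty acid synthesis -0.15 and structured noncoding RNAs 0.0381. Library totals shifted every ratio by 0.06 upward relative to TMM. The medians of the BMP, WNT, IGF, clock, calmodulin and nuclease lists changed sign with scaling, so no direction is given for them. AF357425 and the 62 C/D box snoRNAs at 0 reads could not be compared, and the reason for their missing reads was not tested.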

Other observations

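The fibrillarin pulldown libraries of the same states, which are not replicates of the whole-cell libraries, are set beside the calls as a description chosen after seeing the data. Among the 11158 measured genes with at least 10 reads in each pulldown library, 49.7% had a pulldown ratio of High to Low above 0. Of the genes higher past 1.5-fold in whole-cell RNA 24 of 37 (64.9%) had a pulldown ratio above 0, and of those lower 25 of 61 (41.0%). Of the 136 genes past 1.5-fold, 53 overlap another gene in the RefSeq spans, and 5960 of the 12373 measured genes with a span do.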
